A study of Sus scrofa with 9 samples.

Results

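The 24 to 26 nt entries are the longest sequences listed in a microRNA (miRNA) table of porcine granulosa cells (PGCs) exposed to H2O2. An entry is 1 sequence under 1 name with a normalized count in each library. The 45 entries were selected by sequence length, by abundance (3 or more of the 9 libraries had to reach a normalized count of 10) and by name: predicted candidates (names that begin with PC-) and hairpin-derived names (with a lower case -mir-) were left out. They are 45 of the 1345 entries in the table and 45 of the 757 entries that passed the same minimum. Of the 45, 34 were 24 nt long, 8 were 25 nt and 3 were 26 nt. They were compared with 477 entries of 21 to 23 nt and, where length itself was described, with 78 entries of 18 to 20 nt, chosen by the same minimum and name rule. The minimum is a measured value, so the abundance of the entries is a description and carries no test.

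The cells were primary granulosa cells from ovaries of LandracexYorkshire crossbred sows. CON cells received no H2O2, LOS cells received 100 µM and MOS cells received 300 µM, each for 12 h, and each group had 3 small-RNA libraries. All groups, CON included, were cultured cells in serum-containing medium. The sources used here do not state whether the 3 libraries of a group came from separate animals or cultures, so p-values measure only the spread between these libraries.

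A mature miRNA is cut out of a hairpin precursor by the nucleases Drosha and Dicer and guides Argonaute proteins to messenger RNAs. Target choice rests mainly on the seed, here bases 2 to 8. The position of the cuts sets the ends of the mature sequence. Bases can also be added to the 3′ end by nucleotidyl transferases or trimmed by exonucleases, so that 1 miRNA is present as several forms, called isomiRs, that share a seed but differ in length. A few miRNAs have a mature sequence in miRBase, the public miRNA registry, that is itself longer than usual. In the entry names, R+2 stands for 2 bases more at the 3′ end than the registered sequence, R-1 for 1 base fewer, L+ and L- for bases at the 5′ end, and ss for a substituted base. The species code in front (ssc for pig, hsa for human and so on) says whose registered miRNA was matched. It does not say that the RNA came from another species.

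The 9 libraries had summed normalized counts of 4967112 to 6098582. Of the values under 400, 98.3% to 99.9% lay within 0.01 of a whole number of a fixed step per library, 0.340 to 0.637. If that step is the value of 1 read, which the sources do not state, the libraries held an estimated 7793727 to 16764959 reads. MOS libraries had the lowest totals, and MOS3 was closer to CON and LOS than MOS1 and MOS2 were: its correlation with the CON libraries across the 757 entries was 0.915 to 0.920, against 0.881 to 0.887 for MOS1 and MOS2. Entries are not independent replicates. The granulosa and follicle miRNAs (34 entries, miR-21 among them) held 37.5% to 49.2% of each library. Their sum was lower in MOS (1862620 to 2083020) than in CON (2355530 to 2935890), without overlap. Most of that sum was the entry ssc-miR-21_R+1, with 1737960 to 1944710 in MOS and 2261410 to 2828380 in CON libraries. In the tests described below, 7 of the 31 list entries that passed the minimum were higher in MOS than in CON and 5 lower. Over all tested entries, 20.2% were higher and 9.11% lower. Sums without overlap, lower in MOS than in CON, were also seen for the 4 leukocyte entries (1005 to 2098 in MOS, 2460 to 2678 in CON) and the 4 muscle entries (976 to 1565 in MOS, 1677 to 1720 in CON). The 5 red blood cell entries summed to at most 775 normalized counts, the 2 endothelial entries to at most 3564 and the 8 stroma and theca entries to 235709 to 420438, with overlap of MOS and CON. The 5 neuronal entries summed to 615 to 684 in the CON libraries, below both H2O2 groups (774 to 915 for LOS, 731 to 931 for MOS). The 13 epithelial, liver and gut entries summed to 278 to 306 in the CON libraries, to 1079 to 1201 in the LOS libraries and to 1156 to 1639 in the MOS libraries, without overlap between CON and either H2O2 group. None of the 45 entries belongs to the lists of other cell types, and the part of other cell types in the results below was not tested. In bulk RNA, fewer cells of a type and less of an RNA per cell cannot be told apart.

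Of the 7 seeds shared by more than 1 of the 45 entries, 3 are shown first: miR-30 because it held most of the summed signal, and miR-181 and miR-146 because their members passed the tests below. The miR-574-5p forms are shown further on, and the let-7, miR-103 and miR-361-3p pairs are the other 3. The seed is in capitals, and the sequences are in the DNA letters of the deposited table, 5′ to 3′. The miR-30 family shares 1 seed in 4 entries:
ssc-miR-30a-5p_R+2: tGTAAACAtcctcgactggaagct
ssc-miR-30e-5p: tGTAAACAtccttgactggaagct
ssc-miR-30d: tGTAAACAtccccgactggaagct
ssc-miR-30c-5p_R+1: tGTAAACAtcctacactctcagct
The miR-181 family shares 1 seed in 3 entries:
ssc-miR-181b: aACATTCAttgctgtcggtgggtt
ssc-miR-181d-5p: aACATTCAttgttgtcggtgggtt
mdo-miR-181b-5p_R+3: aACATTCAttgctgtcggtgggttgt
miR-146a and miR-146b share 1 seed and differ near the 3′ end:
mmu-miR-146a-5p_R+2: tGAGAACTgaattccatgggttaa
ssc-miR-146b_R+3: tGAGAACTgaattccataggctgt

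The summed signal of the 45 entries was small and was held mostly by miR-30, a family known in human cells for acting on the autophagy gene BECN1. The 45 entries held 2.45%, 2.05% and 2.43% of the summed normalized counts in CON1 to CON3, 2.50%, 2.26% and 2.71% in LOS1 to LOS3, and 3.01%, 2.84% and 2.66% in MOS1 to MOS3. All MOS libraries lay above all CON libraries, LOS overlapped CON, and MOS3 lay below LOS3. The 21 to 23 nt entries held 96.3% to 96.6% in MOS and 97.1% to 97.5% in CON libraries. Of the shares of the 45 entries, the 4 miR-30 entries made up 1.30% to 1.62% of the CON libraries, 1.37% to 1.70% of the LOS libraries and 1.69% to 1.78% of the MOS libraries. Their summed normalized counts overlapped between MOS (84097 to 89880) and CON (76597 to 98540). Their percent of the sum of the 45 overlapped too, with 56.2% to 66.8% in MOS and 63.2% to 66.5% in CON libraries. The most abundant entry of the table, ssc-miR-21_R+1 at 23 nt, is not among the 45 and held 34.99% to 38.0% of the MOS libraries and 40.5% to 47.5% of the CON libraries. With that entry left out of the total, a denominator chosen after the data were seen, the 45 entries held 4.12% to 4.86% in MOS and 3.91% to 4.55% in CON libraries, and the groups overlapped.

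**Figure D1:**
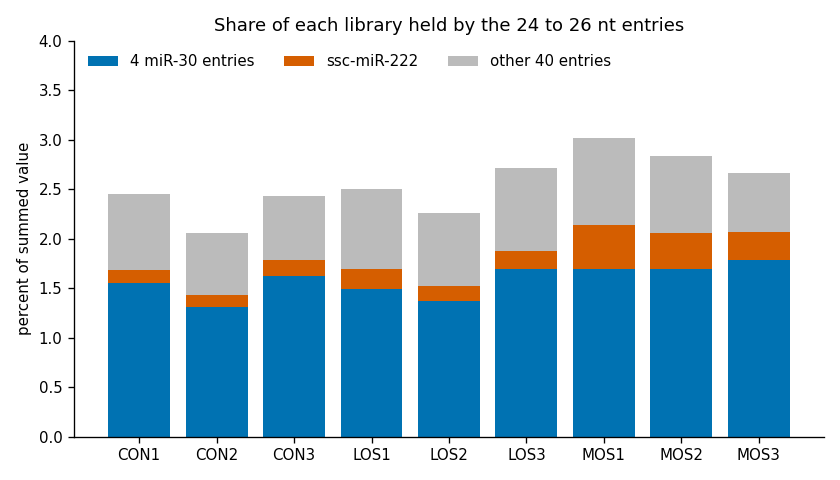
Percent of the summed normalized count of each library (y axis) held by the 24 to 26 nt entries, for the 9 libraries on the x axis; stacked bars give the 4 miR-30 entries, ssc-miR-222 and the other 40 entries. CON bars end at 2.05% to 2.45%, LOS bars at 2.26% to 2.71% and MOS bars at 2.66% to 3.01%.

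The 10 most abundant of the 45 had means over all 9 libraries of 2366 to 31506 normalized counts. ssc-miR-30a-5p_R+2 had 29638, 27255 and 34357 in CON, 29759, 28248 and 36877 in LOS and 32077, 30669 and 34672 in MOS. ssc-miR-30e-5p had 20294, 17743 and 25722 in CON, 19721, 18475 and 27009 in LOS and 27287, 28874 and 26259 in MOS. Neither passed the test in any comparison. For miR-30e the MOS libraries lay above all CON libraries (log2 fold change 0.39 ± 0.17 SE, limma adjusted p = 0.118). ssc-miR-155-5p_R+2, an entry of a miRNA known for immune cell activation, had 15815, 14533 and 14809 in CON, 18911, 17487 and 20585 in LOS and 19397, 16503 and 10923 in MOS. All 3 LOS libraries were above CON for miR-155 (0.33 ± 0.18, adjusted p = 0.698) and MOS3 was the lowest library of all. ssc-miR-425-5p_R+2 had 6710, 5069 and 5689 in CON, 5918, 6171 and 7081 in LOS and 6232, 5152 and 4691 in MOS, with every pair of groups overlapping. sha-miR-125a_R+2, which carries the sequence of miR-125b plus added bases, had 2578, 1442 and 2221 in CON, 2404, 2894 and 2648 in LOS and 2990, 2663 and 1700 in MOS. Its groups overlapped as well. The other 5 of the 10, miR-30d, miR-222, miR-30c, miR-181b and miR-24-1-5p, passed the test and are described below.

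Each entry was then tested between groups. limma was fitted to log2(normalized count + 1) over all 757 entries and 9 libraries, with Benjamini-Hochberg adjustment per comparison. An entry is called at an adjusted p under 0.05. MOS against CON called 6 of the 45 higher and 8 lower. Over all tested entries it called 20.2% higher and 9.11% lower, and of the 21 to 23 nt entries it called 53 of 477 higher and 56 lower. Among the 39 of the 45 with at least 10 in every CON library it called 3 higher and 8 lower, and among the 35 with at least 10 in all 9 libraries 3 higher and 7 lower. Groups did not overlap in 17 of the 45 (37.8%), where 41.3% of all tested entries did not overlap. MOS against LOS called 3 of the 45 higher and 13 lower. Here 18.9% of all tested entries were called higher and 10.8% lower, the 21 to 23 nt entries gave 40 higher and 66 lower of 477, and groups did not overlap in 25 of the 45, against 41.1% of all tested entries. LOS against CON called 1 higher and 0 lower in limma (11 higher and 1 lower at an unadjusted p under 0.05), beside 2.51% higher and 0.396% lower over all tested entries. Groups did not overlap in 15 of the 45, against 20.6% of all tested entries. These 3 comparisons share libraries, so their counts are not independent.

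The median log2 fold change of the 45 was −0.12 in MOS against CON, where it was −0.03 for 21 to 23 nt entries, 0.69 for 18 to 20 nt entries and 0.07 over all tested entries. In MOS against LOS it was −0.42 for the 45, −0.04 for 21 to 23 nt, 0.80 for 18 to 20 nt and 0.08 over all, and 10 of the 45 were above 0. In LOS against CON it was 0.16 for the 45, −0.00 for 21 to 23 nt and −0.11 for 18 to 20 nt, and 38 of the 45 were above 0. By single lengths in MOS against LOS, the medians were 0.44 at 18 nt, 0.82 at 19 nt and 0.83 at 20 nt. They were 0.09 at 21 nt, −0.01 at 22 nt, −0.21 at 23 nt, −0.42 at 24 nt and −0.47 at 25 nt. The 3 entries of 26 nt had a median of −0.08. Restricted to entries with at least 10 in all 9 libraries, so that none passed through 1 group alone, the medians in MOS against LOS were −0.41 for 35 of the 45, −0.03 for 420 of 21 to 23 nt and 0.65 for 49 of 18 to 20 nt. With at least 100 in all 9 libraries, they were −0.32 for 23 of the 45, −0.04 for 281 of 21 to 23 nt and 0.16 for 12 of 18 to 20 nt. For these more abundant entries the medians in MOS against CON were 0.01, −0.06 and 0.06, in the same order. The share of the library in 18 to 20 nt entries moved as well: it was 0.127% to 0.168% of the CON libraries, 0.112% to 0.153% of the LOS libraries and 0.306% to 0.383% of the MOS libraries, and its part in the medians was not tested. Scaling every library to the same total moved the median of all tested entries in MOS against LOS to 0.32 and that of the 45 to −0.18. In MOS against CON it moved them to 0.28 and 0.09, so that the median of the 45 changed sign and stayed below that of all entries. In MOS against LOS the calls were then 5 higher and 4 lower among the 45, and 30.3% higher and 5.81% lower over all tested entries. In MOS against CON they were 9 higher and 4 lower among the 45, and 25.6% higher and 4.1% lower over all.

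**Figure D2:**
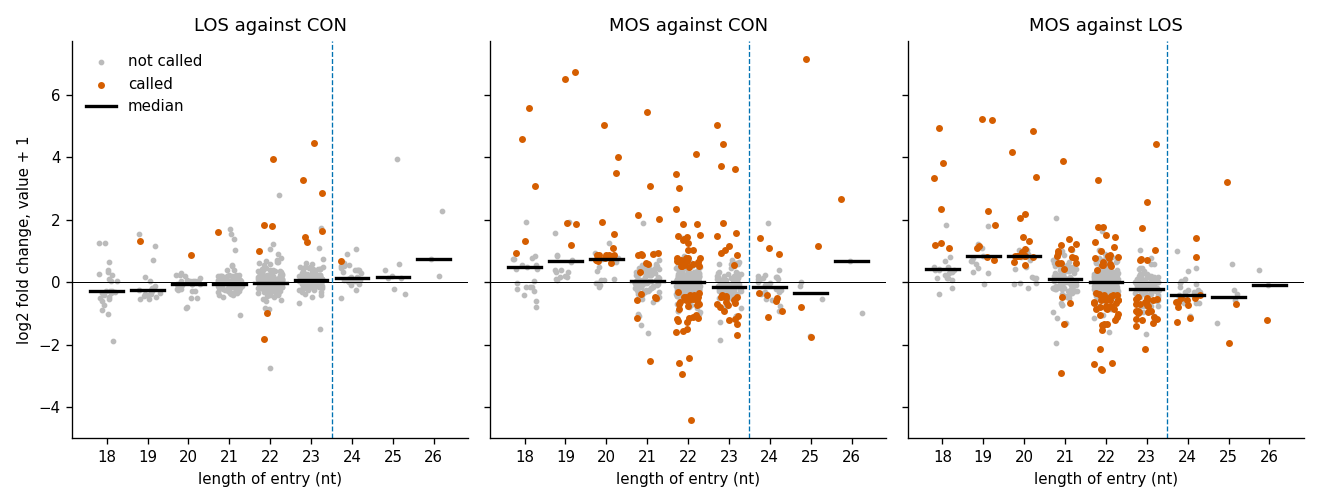
log2 fold change of the normalized count + 1 (y axis) against entry length in nt (x axis) for 18 to 26 nt entries in the 3 comparisons; each point is an entry, called entries are in orange, black bars are medians and the dashed line parts 23 nt from 24 nt. In MOS against LOS the medians are 0.44 at 18 nt, 0.83 at 20 nt, −0.42 at 24 nt and −0.08 at 26 nt.

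Among the entries called higher in MOS than in CON were both arms of the miR-221 and miR-222 pair, which is known for repressing the cell cycle inhibitor CDKN1B and the receptor KIT. In these 2 entries the seed is in capitals:
ssc-miR-222: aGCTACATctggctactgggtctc
ssc-miR-221-5p_R-2: aCCTGGCAtacaatgtagatttct
ssc-miR-222 had 22494, 18165 and 14216 in MOS libraries, against 7635, 7597 and 10269 in CON libraries (log2 fold change 1.10 ± 0.19 SE, adjusted p = 0.00189). All MOS libraries were above all CON and LOS libraries, and LOS had 11528, 8826 and 10800. MOS against LOS gave 0.80 ± 0.19 (adjusted p = 0.0107), and both calls held in all 19 alternatives. The 22 nt ssc-miR-221-3p, of the same seed, was higher in MOS than in CON as well (log2 fold change 0.77 ± 0.12, adjusted p = 0.00129). ssc-miR-221-5p_R-2 comes from the other arm of the miR-221 hairpin and had 1441, 1414 and 1020 in MOS, against 810, 512 and 771 in CON libraries (0.90 ± 0.22, adjusted p = 0.0148). Its LOS libraries, 914, 777 and 1171, overlapped both groups. The call for the miR-221-5p entry was lost without CON2 or without MOS2, with an adjusted p of up to 0.0662.

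mmu-miR-146a-5p_R+2 belongs to a miRNA that NF-κB induces and that represses IRAK1 and TRAF6. It had 161, 211.6 and 185 in MOS, against 102, 58.9 and 55.05 in CON libraries (log2 fold change 1.40 ± 0.26, adjusted p = 0.00282), and 56.5, 72.9 and 79.7 in LOS. All MOS libraries were above all others, MOS against LOS gave 1.41 ± 0.26 (adjusted p = 0.00331), and both calls held in all 19 alternatives. The 22 nt ssc-miR-146a-5p was higher by 1.34 in MOS than in CON (adjusted p = 3.76e-05), and the ratio of the 24 nt form to it is given below. ssc-miR-146b_R+3, of the same seed, had another order of the groups. It had 1005, 1063 and 1234 in LOS, against 765, 589 and 727 in CON libraries, and was the only one of the 45 called in LOS against CON (0.67 ± 0.14, adjusted p = 0.0398). In MOS it had 687, 840 and 786, which overlapped CON and lay below every LOS library (MOS against LOS −0.51 ± 0.14, adjusted p = 0.0222). The LOS against CON call of miR-146b was lost in 11 of 19 alternatives, among them the omission of any of CON1, CON2, CON3, LOS1, LOS2, LOS3 and MOS2, with an adjusted p of up to 0.178. Its MOS against LOS call was lost without LOS2, LOS3 or MOS1 (up to 0.0955) and at equal library totals (0.182).

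The other 3 entries called higher in MOS than in CON had means over the 9 libraries of 17.6 to 141.1 normalized counts. Their seeds are in capitals:
cgr-miR-1973_L+6R+1: gTATTCTGaccgtgcaaaggtagca
bta-miR-677_R+3_1ss13CT: cTCACTGAtgagtagcttctgacttt
bta-miR-1291_R+1: tGGCCCTGactgaagacctgcagtt
cgr-miR-1973_L+6R+1 had 0, 0 and 5.41 in CON, 32.0, 28.0 and 23.7 in LOS and 594, 528 and 58.5 in MOS libraries. MOS3 was far below the other MOS libraries but above every LOS library. The fitted log2 fold change in MOS against CON was 7.16 ± 0.94 (adjusted p = 0.000333), a size that depends on the added 1 because CON1 and CON2 were at 0. The call held in all 19 alternatives. In MOS against LOS it was 3.21 ± 0.94 (adjusted p = 0.0270), lost without any of LOS1, LOS2, LOS3, MOS1 and MOS2 (up to 0.121). LOS lay above CON without overlap and was not called (3.95 ± 0.94, limma adjusted p = 0.0601), a size that depends on the added 1 as well. The same sequence with the same values is also listed under a human hairpin-derived name. bta-miR-677_R+3_1ss13CT had 37.4, 40.8 and 9.75 in MOS, against 0, 6.25 and 8.12 in CON libraries (2.68 ± 0.83, adjusted p = 0.0376), with 14.3, 16.1 and 27.5 in LOS. MOS3 was the lowest H2O2 library and lay just above CON, and the call was lost without any of CON1, CON2, LOS1, LOS2, LOS3, MOS1 and MOS2 (up to 0.136). bta-miR-1291_R+1 had 28.7, 34.4 and 15.2 in MOS, against 10.1, 12.5 and 9.02 in CON libraries (1.17 ± 0.33, adjusted p = 0.0275), with 14.96, 18.7 and 15.2 in LOS. It was lost without any of CON1, CON2, CON3, MOS1 and MOS2 (up to 0.0918). Since miR-1973 and miR-677 reached 10 in no CON library, they could pass the minimum only through the H2O2 groups, and their higher values there are in part set by the selection.

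**Figure D3:**
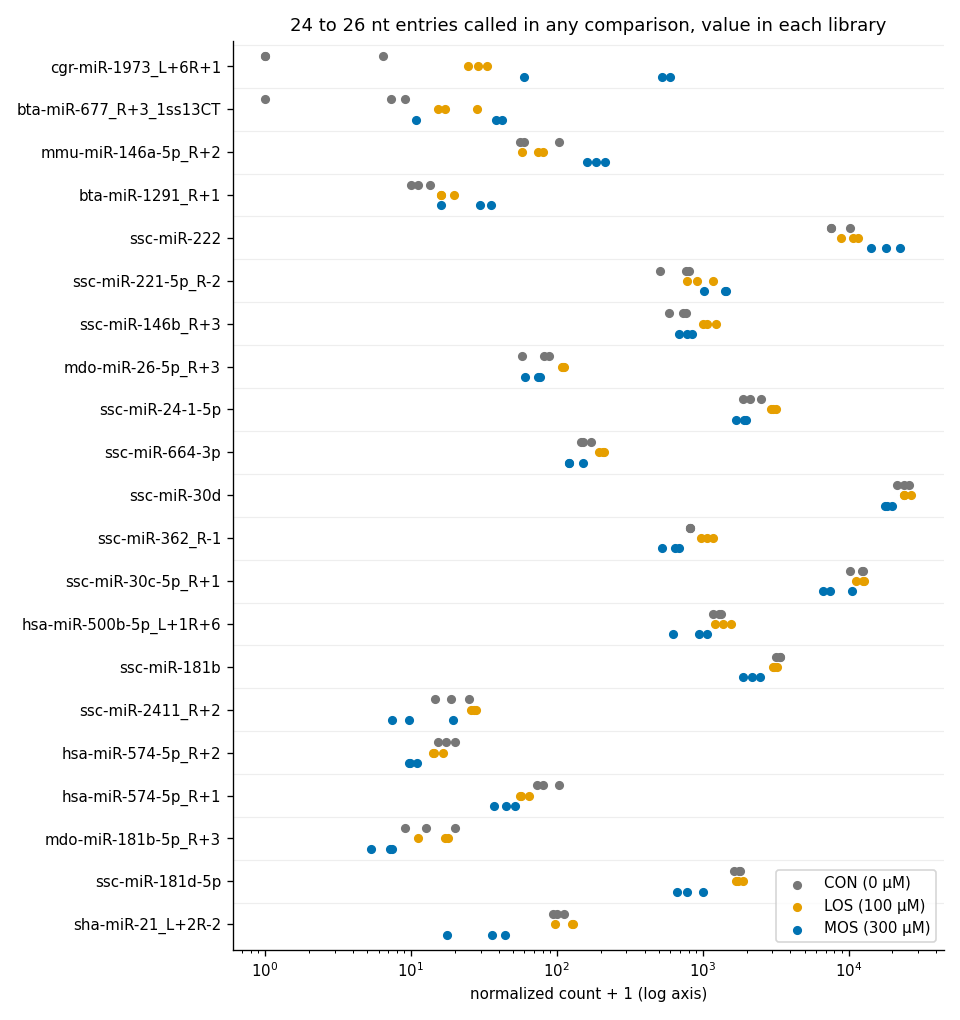
Normalized count + 1 (x axis, log scale) in each of the 9 libraries for the 24 to 26 nt entries called in any comparison (y axis), ordered by the log2 fold change in MOS against CON. Each dot is a library and the dots of an entry are stacked CON, LOS, MOS. The 3 MOS dots lie right of all CON dots for ssc-miR-222 and left of them for ssc-miR-181d-5p.

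The 8 entries called lower in MOS than in CON included 2 of the miR-181 family, 2 of the miR-30 family, both longer forms of miR-574-5p, miR-362 and a form of miR-21 with an extended 5′ end. ssc-miR-181d-5p had 775, 664 and 999 in MOS, against 1768, 1642 and 1798 in CON libraries (log2 fold change −1.11 ± 0.15, adjusted p = 0.000333), and 1685, 1747 and 1895 in LOS. MOS lay below every other library. ssc-miR-181b had 2462, 2180 and 1896 in MOS, against 3402, 3165 and 3389 in CON libraries (−0.61 ± 0.11, adjusted p = 0.00243), and 3075, 3040 and 3229 in LOS. MOS against LOS gave −1.15 ± 0.15 for miR-181d (adjusted p = 0.00037) and −0.52 ± 0.11 for miR-181b (adjusted p = 0.00662). All of these calls held in all 19 alternatives, except that miR-181b in MOS against LOS had an adjusted p of 0.0805 at equal library totals. The third entry, mdo-miR-181b-5p_R+3, is the miR-181b sequence with 2 further bases and had 6.23, 6.37 and 4.33 in MOS, against 17, 10.2 and 16.1 in LOS libraries (−1.20 ± 0.38, adjusted p = 0.0382). In CON it had 18.96, 8.04 and 11.7, above all MOS libraries (−1.004 ± 0.38, adjusted p = 0.0773). Its call in MOS against LOS was lost without any of CON3, LOS1, LOS3, MOS1, MOS2 and MOS3 (up to 0.123). It reached 10 in no MOS library and passed the minimum only through CON and LOS, so its lower values in MOS are in part set by the selection. Of the 23 nt entries of this seed, ssc-miR-181c_R+1 was called lower in MOS than in CON (−0.53 ± 0.11, adjusted p = 0.00544) and ssc-miR-181a_R-1 had 0.15 ± 0.18 (adjusted p = 0.555).

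ssc-miR-30d had 19814, 17820 and 18348 in MOS, against 24129, 21438 and 25822 in CON libraries (log2 fold change −0.35 ± 0.10, adjusted p = 0.0279), and 24088, 24006 and 27013 in LOS (MOS against LOS −0.42 ± 0.10, adjusted p = 0.0108). The MOS libraries lay below all others. ssc-miR-30c-5p_R+1 had 7515, 6734 and 10601 in MOS, against 12395, 10160 and 12638 in CON libraries (−0.52 ± 0.17, adjusted p = 0.0401), where MOS3 lay inside the CON range. Against LOS, with 11328, 12693 and 12538, the groups did not overlap (−0.58 ± 0.17, adjusted p = 0.0242). So 2 of the 4 miR-30 entries were lower in MOS, while miR-30a and miR-30e had values of 0.10 and 0.39 that did not pass the test, and a difference between the family members was not tested. The MOS against CON calls were lost for miR-30d without CON1, CON3 or MOS2 (up to 0.109) and for miR-30c without any of CON1, CON3, LOS1, LOS2, LOS3, MOS1 and MOS2 (up to 0.136). For miR-30c the MOS against LOS call was lost without LOS2, LOS3, MOS1 or MOS2 (up to 0.0942). At equal library totals the adjusted p was 0.315 for miR-30d in MOS against CON and 0.171 in MOS against LOS.

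ssc-miR-362_R-1 and hsa-miR-500b-5p_L+1R+6 are members of a miRNA cluster that lies on the X chromosome in human. Their seeds, in capitals, are shifted by 1 base:
ssc-miR-362_R-1: aATCCTTGgaacctaggtgtgagt
hsa-miR-500b-5p_L+1R+6: tAATCCTTgctacctgggtgagagt
ssc-miR-362_R-1 had 822, 818 and 816 in CON, 1077, 977 and 1185.2 in LOS and 645, 528 and 688 in MOS libraries. No 2 groups overlapped: MOS was the lowest and LOS the highest. It was lower in MOS than in LOS (log2 fold change −0.80 ± 0.13, adjusted p = 0.00144), a call that held in all 19 alternatives, and lower in MOS than in CON (−0.41 ± 0.13, adjusted p = 0.0409), a call lost on omission of any library but MOS3 (up to 0.108). hsa-miR-500b-5p_L+1R+6 had 948, 621 and 1076 in MOS, against 1383, 1221 and 1573 in LOS libraries (−0.69 ± 0.20, adjusted p = 0.0240), without overlap. With 1336, 1287 and 1172 in CON, MOS against CON gave −0.56 ± 0.20 (adjusted p = 0.0593). The call in MOS against LOS was lost without LOS1 or LOS3 (up to 0.0955).

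In MOS against LOS, 4 further entries were called lower. Their seeds are in capitals:
ssc-miR-24-1-5p: gTGCCTACtgagctgaaacacagt
ssc-miR-664-3p: tATTCATTtatctcccagcctaca
ssc-miR-2411_R+2: tGGAGTGActgtcagatgcagcca
mdo-miR-26-5p_R+3: tTCAAGTAatccaggataggctag
ssc-miR-24-1-5p is the arm opposite the abundant miR-24 sequence in its hairpin. It had 1908, 1690 and 1996 in MOS, against 2955, 3055 and 3186 in LOS libraries (log2 fold change −0.72 ± 0.12, adjusted p = 0.00202), and 2503, 1893 and 2110 in CON. The LOS libraries lay above all others, and the call held in all 19 alternatives. ssc-miR-664-3p had 121, 121 and 150 in MOS, against 205.8, 193 and 209 in LOS libraries (−0.64 ± 0.15, adjusted p = 0.0108), and 171, 149 and 146 in CON, so that LOS was again above all others. The miR-664 call was lost at equal library totals alone (0.0876). mdo-miR-26-5p_R+3 had 76.1, 59.9 and 73.7 in MOS, against 107, 110 and 110 in LOS libraries (−0.64 ± 0.20, adjusted p = 0.0386), and 87.2, 80.4 and 56.9 in CON. ssc-miR-2411_R+2 had 8.73, 6.37 and 18.4 in MOS, against 25.8, 27.1 and 24.7 in LOS libraries (−1.27 ± 0.38, adjusted p = 0.0316), and 17.7, 24.1 and 13.5 in CON. In both, LOS was the highest group, and both calls were lost on omission of single libraries: miR-26 without CON2, LOS1, LOS2, LOS3 or MOS2 (up to 0.112), miR-2411 without LOS1, LOS2, LOS3, MOS1 or MOS2 (up to 0.098). The total of calls moved likewise. Against CON, MOS called 8 of the 45 without CON1, 9 without CON2, 9 without CON3, 7 without MOS2 and 21 without MOS3. Against LOS, MOS called 10 without LOS3. LOS against CON called 0 without CON2, LOS1, LOS2, LOS3 or MOS2, 2 without MOS1 and 5 without MOS3.

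A longer entry can be read against a shorter sequence of the same RNA in the same library. Such a ratio does not depend on how libraries were scaled. The tests add 1 to both values, so at low normalized counts a tested ratio depends on the scaling in part. For 14 of the 45, a shorter tested entry lay wholly inside the sequence, whatever its name, and for 31 there was none. The shorter sequence is in lower case below and the added bases are in capitals:
sha-miR-21_L+2R-2: AAtagcttatcagactgatgttgac
mmu-miR-146a-5p_R+2: tgagaactgaattccatgggttAA
sha-miR-125a_R+2: tccctgagaccctaacttgtgaAA
mmu-let-7c-5p_R+2_1ss17AG: tgaggtagtaggttgtgtggttTT
mmu-let-7j_1ss8TG: tgaggtagtagtttgtgctgttAT
mdo-miR-26-5p_R+3: ttcaagtaatccaggataggctAG
oan-miR-103-3p_R+2: agcagcattgtacagggctatgaGT
The lower case parts are listed under names of their own. For 3 of these the name is that of another miRNA: the lower case part of sha-miR-125a_R+2 was listed as ssc-miR-125b, that of mmu-let-7c-5p_R+2_1ss17AG as hsa-let-7b-5p and that of mmu-let-7j_1ss8TG as ssc-let-7i_R+3. For the others it is the pig name of miR-21, miR-146a, miR-26a and miR-103. Of the 14, 13 were less abundant than the most abundant shorter entry, and 1 had added bases at the 5′ end. The exception in abundance was ssc-miR-664-3p, with a mean of 163 against 59.0 for its 23 nt form.

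These 14 ratios were tested among 119 such ratios of entries of any length. In LOS against CON, limma called 0 of the 14 (2 at an unadjusted p under 0.05, both higher). It called 3 of the 14 in MOS against CON and 4 in MOS against LOS, all lower. Of all 119 ratios, higher and lower together, it called 1 (0.84%) in LOS against CON, 31 (26.1%) in MOS against CON and 39 (32.8%) in MOS against LOS. These shares are not split by direction, so the direction of the 14 has no background here. This set of partners was chosen after the data were seen. The tested ratio is to the sum of all shorter entries inside the sequence, and values per 1000 are to the most abundant of them. sha-miR-21_L+2R-2 had 34.9, 16.6 and 43.3 in MOS, against 93.5, 112 and 99.3 in CON libraries (log2 fold change −1.75 ± 0.32, adjusted p = 0.00252), and 125.8, 96.6 and 128 in LOS (MOS against LOS −1.95 ± 0.32, adjusted p = 0.00155). Both calls held in all 19 alternatives, with MOS below every other library. miR-21, which supports cell survival in many cell types, was the most abundant entry, and the 23 nt ssc-miR-21_R+1 fell by 0.52 in MOS against CON (adjusted p = 0.00902). Per 1000 of that entry, the extended form had 0.0414, 0.0400 and 0.0351 in CON, 0.0493, 0.0351 and 0.0453 in LOS and 0.0180, 0.00953 and 0.0243 in MOS libraries. MOS lay below all others, and the ratio was lower than in CON (−1.23 ± 0.30, adjusted p = 0.0210) and than in LOS (−1.37 ± 0.30, adjusted p = 0.0156). The first call was lost without CON1, CON2 or MOS1 (up to 0.0605) and the second without LOS1 (0.0576).

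For miR-146a the ratio did not pass the test. The 24 nt form had 27.6, 27.6 and 30.3 per 1000 of ssc-miR-146a-5p in MOS, against 39.3, 23.98 and 20.98 in CON libraries. The tested ratio, to its 2 shorter entries together, had a log2 difference of 0.05 ± 0.21 (limma adjusted p = 0.877). mmu-let-7j_1ss8TG had 1.80, 2.16 and 2.99 per 1000 of its 22 nt form in MOS, against 3.70, 3.51 and 4.50 in LOS libraries (−0.77 ± 0.24, adjusted p = 0.0385), lost without LOS1, LOS2, LOS3, MOS1 or MOS2 (up to 0.132), and 3.81, 2.45 and 4.01 in CON. The forms of miR-125b (11.1 to 16.6 per 1000 in MOS, 13.4 to 15.9 in CON) and let-7b (6.64 to 8.92 in MOS, 6.36 to 8.66 in CON), each with 2 added bases, overlapped between MOS and CON. LOS lay above CON without a call for let-7b (8.755 to 9.90 in LOS, adjusted p = 0.436), for the 25 nt form of miR-103 (3.45 to 4.08 per 1000 in LOS, 2.45 to 3.28 in CON, adjusted p = 0.428) and for miR-26a (0.936 to 1.01 in LOS, 0.452 to 0.759 in CON, adjusted p = 0.436). MOS lay below LOS without a call for miR-26a (0.556 to 0.777 in MOS, adjusted p = 0.0823) and for miR-181b (2.29 to 2.92 per 1000 in MOS, 3.35 to 5.53 in LOS, adjusted p = 0.099). The 24 nt form of miR-103 and the forms of miR-29c, miR-664 and miR-708 overlapped in every pair of groups and were not called. So the ratio differed for miR-21, let-7i and miR-574 in the comparisons named, and 10 of the 14 were called in none.

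**Figure D4:**
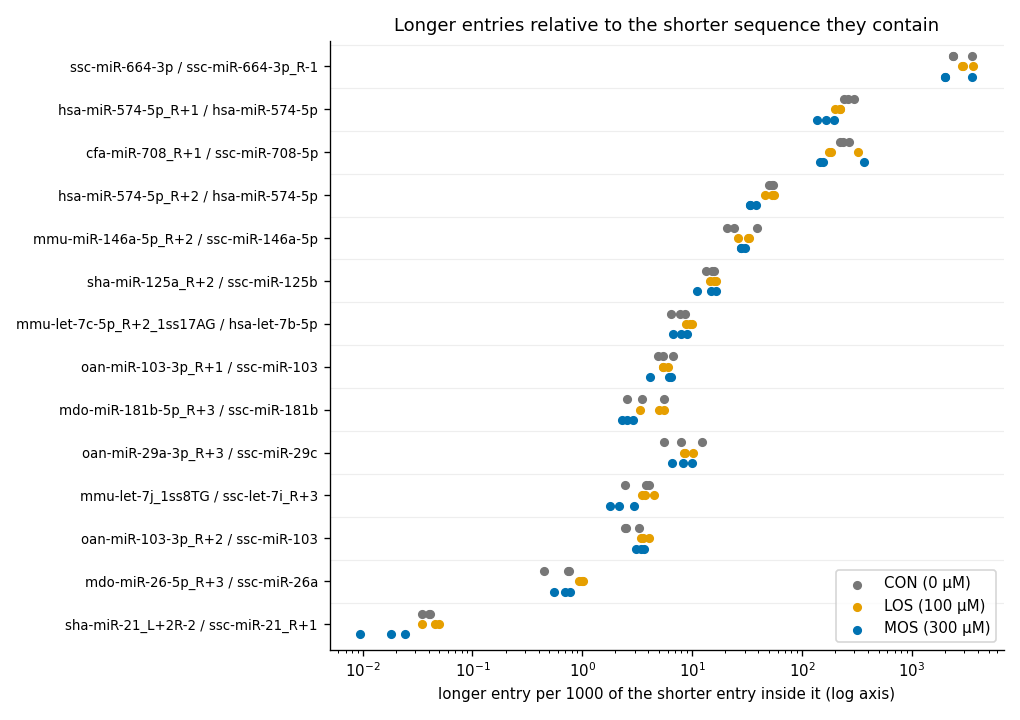
Normalized count of the longer entry per 1000 of the most abundant shorter entry inside its sequence (x axis, log scale) in each library, for the 14 pairs named on the y axis as longer / shorter; the dots of a pair are stacked CON, LOS, MOS. The MOS dots of sha-miR-21_L+2R-2 lie between 0.00953 and 0.0243, left of all CON and LOS dots.

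miR-574-5p, a sequence of TG repeats for most of its length, was listed as a run of forms from 20 to 25 nt that share a 5′ end and differ by single bases at the 3′ end. The 21st and later bases are in capitals:
hsa-miR-574-5p_R-3: tgagtgtgtgtgtgtgagtg
hsa-miR-574-5p_R-2: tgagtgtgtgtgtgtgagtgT
hsa-miR-574-5p_R-1: tgagtgtgtgtgtgtgagtgTG
hsa-miR-574-5p: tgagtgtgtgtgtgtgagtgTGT
hsa-miR-574-5p_R+1: tgagtgtgtgtgtgtgagtgTGTG
hsa-miR-574-5p_R+2: tgagtgtgtgtgtgtgagtgTGTGA
The 25 nt form had 9.98, 8.92 and 8.67 in MOS, against 18.96, 16.5 and 14.4 in CON libraries (log2 fold change −0.79 ± 0.26, adjusted p = 0.0468). The 24 nt form had 36.2, 44.0 and 50.4 in MOS, against 102, 79.5 and 71.7 in CON libraries (−0.94 ± 0.21, adjusted p = 0.00876). In neither form did MOS overlap CON or LOS, whose libraries had 13.3, 15.7 and 13.3 for the 25 nt form and 63.9, 56.0 and 55.04 for the 24 nt form. The call for the 24 nt form held in all 19 alternatives. That for the 25 nt form was lost on omission of any library but MOS3 (up to 0.157). No MOS library reached 10 for the 25 nt form, so it could pass the minimum only through CON and LOS, and its lower values and ratios in MOS are in part set by the selection.

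The shorter forms of miR-574-5p had other values. The registered 23 nt form had 262, 265 and 257 in MOS, against 345, 328.6 and 273 in CON libraries (−0.26 ± 0.14, adjusted p = 0.182), a separation of the groups that did not pass the test. The 22 nt form had 68.6, 72.7 and 66.1 in MOS, against 40.4, 47.3 and 36.1 in CON libraries (0.74 ± 0.25, adjusted p = 0.0536), and it was higher in MOS than in LOS, with 44.9, 50.9 and 27.5 in LOS (0.78 ± 0.25, adjusted p = 0.0421). The 21 nt form overlapped between MOS and CON (0.15 ± 0.18, adjusted p = 0.568), and the 20 nt form had 16.2, 21.03 and 15.7 in MOS, against 8.85, 8.04 and 9.48 in CON libraries (0.92 ± 0.36, adjusted p = 0.0862). The signs thus differed along the run: values under 0 at 23 to 25 nt and over 0 at 20 to 22 nt. Forms with a substituted base also passed the minimum and are not part of this run. Over all 7 entries of 21 to 23 nt with this seed, the log2 fold changes in MOS against CON ran from −0.41 to 0.74, and 0 were called. The ratio of the 24 nt form to its shorter forms was lower in MOS than in CON (−0.91 ± 0.17, adjusted p = 0.00849), as was that of the 25 nt form (−0.65 ± 0.14, adjusted p = 0.0137), and both held on omission of each library. Against LOS both were lower too (−0.55 ± 0.17, adjusted p = 0.0384, and −0.63 ± 0.14, adjusted p = 0.0160), calls that were lost for the 24 nt form without CON3, LOS1, LOS2, LOS3, MOS1 or MOS2 (up to 0.123) and for the 25 nt form without LOS2 or MOS2 (up to 0.0576).

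**Figure D5:**
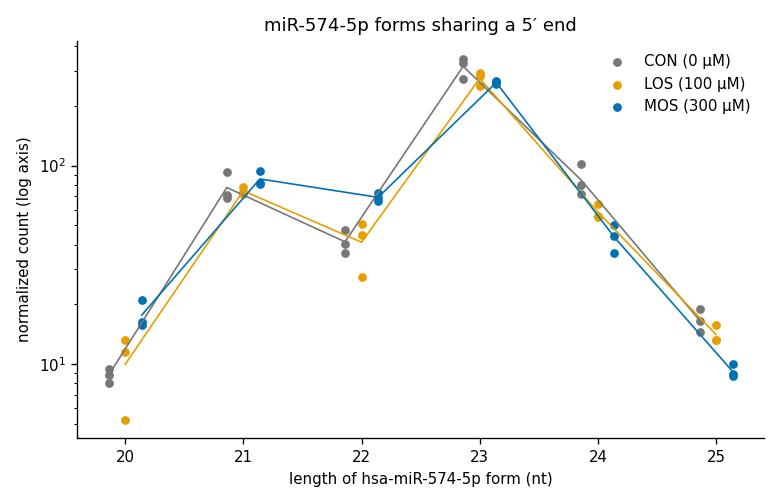
Normalized count (y axis, log scale) of the 6 miR-574-5p forms against their length in nt (x axis); dots are libraries, lines join group means, and groups are offset sideways. MOS dots lie below all CON dots at 23, 24 and 25 nt and above them at 20 and 22 nt.

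The same question was also asked by name alone, with each entry set against the sum of all other lengths of its name, a ratio that exists for 7 of the 45 and for 171 entries in all. MOS against CON called 3 of the 7 (38% of the 171), both miR-574-5p forms lower and miR-1973 higher. MOS against LOS called 2 (31.6%), both miR-574-5p forms lower. LOS against CON called 1 (2.34%), miR-1973, whose other form, cgr-miR-1973_R+3, was at 0 in CON1 and CON2 as well, so that this ratio has no measured baseline in those libraries. In the 7 libraries where both forms were present, the 25 nt form had 300% to 1250% of the normalized count of the other.

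The entries not named so far had no call in any comparison. Their means ran from 10.1 normalized counts for mmu-miR-3085-5p_2ss12CT21AG to 1264 for ssc-miR-7, which had 1658, 1394 and 624 in MOS and 1278, 1159 and 1193 in CON libraries, the lowest and the highest value both being MOS. For ssc-miR-182 the LOS libraries, 711, 813 and 750, lay above CON, 555, 440 and 482 (log2 fold change 0.63 ± 0.20, adjusted p = 0.231). The same held for ssc-miR-342_R-1 (0.37 ± 0.16, adjusted p = 0.442) and for mmu-miR-3535_1ss20CT (0.76 ± 0.29, adjusted p = 0.376). hsa-miR-29b-1-5p had 31.3, 33.9 and 30.4 in LOS, against 12.6, 18.8 and 13.5 in CON libraries (1.06 ± 0.39, adjusted p = 0.345). ssc-miR-361-3p and hsa-miR-361-3p_L-1R+2 are the same sequence with the same values, 76.7, 45.9 and 73.1 in MOS and 106.2, 75.0 and 109 in CON, so the 45 entries are 44 profiles. ssc-miR-148b-5p_R+1, ssc-miR-671-5p, hsa-miR-454-3p_R+1, hsa-miR-4449_R+2_1ss12TC, oan-miR-29a-3p_R+3 and cfa-miR-708_R+1 had log2 fold changes of −0.93 to 0.19 in MOS against CON. ssc-miR-7139-5p_R+1 had 0, 20.5 and 11.7 in CON, 12.2, 10.2 and 11.4 in LOS and 28.7, 24.2 and 18.4 in MOS. MOS3 lay inside the CON range (MOS against CON 1.91 ± 0.93, limma adjusted p = 0.158).

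Of the 45, 35 reached 10 in all 9 libraries and 39 in every CON library. The entries just inside the minimum were mmu-miR-3085-5p_2ss12CT21AG, hsa-miR-574-5p_R+2 and mdo-miR-181b-5p_R+3, whose 3 highest libraries were at 12.9, 15.7 and 16.1 or more. Just outside were hsa-miR-1249-5p_R+1, ssc-miR-9860-5p_L+1R+2 and hsa-miR-652-5p_L+1R-2, where that value was 8.93, 8.48 and 7.63. hsa-miR-1249-5p_R+1 was listed at 0 in all 3 MOS libraries and had 6.32, 8.93 and 10.8 in CON. In all, 22 entries of 24 to 26 nt fell under the minimum.

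By name, 12 of the 45 carried no mark and matched a registered sequence of that length, and 26 had bases added at the 3′ end. Of the 12, MOS against LOS called 1 higher and 5 lower, and of the 26, 2 higher and 6 lower. The shares were 18.9% higher and 10.8% lower over all tested entries, and 8.39% and 13.8% of the 21 to 23 nt entries. MOS against CON called 1 higher and 3 lower of the 12, and 4 higher and 3 lower of the 26. There the shares were 20.2% and 9.11% over all tested entries, and 11.1% and 11.7% of the 21 to 23 nt entries. Names of porcine miRNAs were 22 of the 45, and 7 were human and 16 of other species. Of the 22, MOS against LOS called 1 higher and 9 lower, and MOS against CON 2 higher and 5 lower. The 45 held 35 seeds, 7 of them in more than 1 entry, and 25 entries shared their seed with an entry of 21 to 23 nt. A T was the last base in 53.3% and the first base in 51.1% of the 45, where these shares were 45.3% and 43.6% in 21 to 23 nt entries; no test was made. The letters TGATGA followed by CTGA on the strand listed, the box C and box D letters of small nucleolar RNAs, were in 2 of the 45 (4.44%), bta-miR-677_R+3_1ss13CT and mmu-miR-3535_1ss20CT, and in 0 of the 477 and 0 of the 78 shorter entries. This pair of letters was searched for after the sequences were seen, and a match is no evidence of origin.

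All 22 porcine-named entries matched a gene in the RefSeq annotation of Sscrofa11.1, used here for names and neighbours. MIR221 and MIR222 lie next to each other, as do MIR362 and MIR500, MIR181D and MIR181C, MIR24-1 and MIR27A, and MIR30D and MIR30B. MIR30E and MIR30C-1 lie together inside the span of NFYC, a subunit of the transcription factor NF-Y, and a second gene for miR-30c, MIR30C-2, lies elsewhere, so the miR-30c sequence cannot be assigned to one of them. miR-181b likewise has 2 genes. MIR664 lies inside RAB3GAP2, MIR425 inside DALRD3, MIR342 inside EVL and MIR361 inside CHM. Values of the host genes were not analysed here.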

How the data were processed

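The 9 small-RNA libraries were prepared from total RNA with TruSeq kits and sequenced on an Illumina HiSeq instrument. Per the labels and the study's methods, the authors ran the reads through ACGT101-miR, which removes adapters and common RNA families, and aligned unique sequences of 18 to 26 nt to miRBase precursors by BLAST, allowing length changes at both ends and 1 mismatch. Sequences longer than 26 nt are therefore outside the table. The deposited values are normalized counts per sequence, a signal unit and their formula is not given in the sources used here. Of the deposited signal values, 96.7% to 98.2% per library were whole multiples of 1 step and the remainder fractions of it, so no count model was used. Values were tested as log2(value + 1) with limma 3.58.1 (trend, R 4.3.3) over the 757 entries with at least 10 in at least 3 libraries, with contrasts on 3 groups of 3 and Benjamini-Hochberg adjustment; a member is called at an adjusted p under 0.05. Ratios of a longer to shorter entries were tested alike. Tables and figures were made with Python 3.11.15 and matplotlib 3.10.9. The fits were tested on simulated data. An exact permutation test of 3 against 3 libraries cannot go below 0.1 and was not used.

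Named with values in every library were called entries whose groups do not overlap, the 10 most abundant, entries with a called ratio, and the 3 on either side of the minimum; the remaining called entries were added after their values were seen. The members, lists and rules were chosen with earlier results of these data known. Alternatives were equal library totals, median-of-ratios factors, pseudocounts of 0.5 and 10, no minimum or a minimum of 50, no trend, a replicate block, a fit to only the 6 libraries compared, omission of each library in turn, and 1 entry per value profile. Comparison of sequences with hairpins was not made here.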

Additional observations from a re-analysis of the deposited data

How the results depend on the processing

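The direction of all called entries was kept in all alternatives run. Of 31 calls of the 24 to 26 nt entries, 13 held in every alternative. The calls of bta-miR-677, bta-miR-1291, hsa-miR-574-5p_R+2, mdo-miR-181b-5p_R+3 and ssc-miR-2411, with means under 20, were each lost in at least 6 alternatives, but so were calls of abundant entries: 11 for ssc-miR-362_R-1 in MOS against CON, 11 for ssc-miR-146b_R+3 in LOS against CON and 10 for ssc-miR-30c-5p_R+1 in MOS against CON. The part of depth was not tested.

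LOS against CON, with 1 call, gave 0 calls at equal library totals, without trend and with the replicate block, 2 at the minimum of 50 and 3 with the 6 libraries alone. MOS against CON, with 14 calls, gave 8 with the 6 libraries alone. MOS against LOS, with 16 calls, gave 9 at equal library totals. Leaving out each library gave 0 to 5 calls in LOS against CON, 7 to 21 in MOS against CON and 10 to 19 in MOS against LOS. Ratios to other lengths of the name in LOS against CON, with 1 call, gave 0 with pseudocounts of 0.5 and 10, no minimum, the minimum of 50, the 6 libraries alone, the replicate block and the shorter sequences inside the entry, and 0 to 1 when each library was left out. In MOS against CON, with 3 calls, they gave 1 at the minimum of 50 and 2 to 5 when each library was left out. In MOS against LOS, with 2 calls, they gave 1 with the pseudocount of 0.5, no minimum, the minimum of 50, the 6 libraries alone and the replicate block, 4 with the shorter sequences inside the entry, and 1 to 2 when each library was left out. The cause was not tested. The mean share of the 24 to 26 nt entries was 1.79% in CON, 1.96% in LOS and 2.20% in MOS without the most abundant of them, and 4.19%, 4.57% and 4.45% with ssc-miR-21_R+1 left out of the total. The shorter-sequence partners, the omission of constant ratios and that total were chosen after seeing the data.

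The deviations of samples with the same replicate number had correlations of −0.08 to 0.18 over 9 pairs. With 3 libraries a group, such values cannot decide whether the numbers pair the libraries, which the sources used here do not state. With the replicate block the calls were 0 in LOS against CON, 12 in MOS against CON and 13 in MOS against LOS. A count test on recovered reads was not run, because some values were fractions of the step taken as 1 read.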

Other observations

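Besides the entries described, 7 entries of 24 to 26 nt with predicted or hairpin-derived names passed the minimum and were left out by the name rule. One of them, hsa-mir-1973-p5_1ss5CT, has the sequence and values of cgr-miR-1973_L+6R+1. PC-3p-10435_176, a predicted candidate of 26 nt, had 4.99, 6.37 and 8.67 normalized counts in MOS, against 18.96, 11.6 and 27.1 in CON libraries (log2 fold change −1.35 ± 0.38 SE, limma adjusted p = 0.0256), and 21.8, 23.7 and 38.9 in LOS (MOS against LOS −1.91 ± 0.38, adjusted p = 0.00469), with MOS below every other library. The other 5 were not called in any comparison. The most abundant, eca-mir-1543-p3_1ss22AG, had 897, 855 and 505 in MOS and 552, 482 and 521 in CON libraries, with MOS3 inside the CON range.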
